A study of Mus musculus with 6 samples.

Results

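Circadian clock genes make the transcription loop that keeps daily time inside cells, and 10 of them were described here in mouse skin after osimertinib, among 33308 genes in the deposited table. They were taken by name from that table and are the activators Arntl, Clock and Npas2, the core-loop repressors Per2, Cry1 and Ciart, and the D-box factors Dbp, Tef, Hlf and Nfil3. These names had been proposed with the differences between the same osimertinib and control libraries in view. Their differences between the groups are therefore given as a description with no test, and nothing is supported with them. All 10 passed the filter on low values, Npas2 only through its level in control libraries.

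RNA-seq libraries came from 3 skin samples of mice given osimertinib, a drug that blocks the growth factor receptor EGFR, for 42 days and from 3 skin samples labelled untreated. The labels give no strain, sex, age, dose, skin site or hour of collection, nor do they say whether each sample is a different mouse, so the error between samples may be technical in part. The hour at which skin is taken sets the level of most of these genes, and here it cannot be told apart from treatment. Total counts ran from 59877553 to 60719064 in osimertinib libraries, against 54112624 to 57174797 in control libraries. Counts of the 10 genes ran from 85 to 11043 per library.

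In the core loop, the protein of Arntl (also called BMAL1) pairs with that of Clock or its relative Npas2, binds DNA at E-boxes and switches on the Per, Cry and Ciart genes, whose products then block the pair. A second loop runs through nuclear receptors. ROR proteins activate and REV-ERB proteins (Nr1d1, Nr1d2) repress Arntl, Npas2, Clock and Nfil3. The PAR bZIP proteins DBP, TEF and HLF activate genes at D-boxes, and NFIL3 represses them there, so that Dbp and Nfil3 transcripts peak at opposite ends of the day in mouse tissues. In skin the clock is known for timing keratinocyte division and the growth phase of hair follicles.

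Of the 10 genes, 9 had a promoter window in the RefSeq table for GRCm38.p6, running from 250 bases before the transcript start to 50 after it, and Per2 was not among them. The windows were searched on both strands for the E-box CACGTG, the D-box TTANGTAA and the ROR element as TAGGTCA or TGGGTCA. None of these motifs overlaps another in the stretches shown. They are printed in the direction of the gene, with the matched letters in capitals, because they hold the letters that the factors of the loop are known to bind.
Ciart, chr3:95882247-95882306, minus strand: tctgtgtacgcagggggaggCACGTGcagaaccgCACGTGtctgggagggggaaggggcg
Ciart, chr3:95882319-95882364, minus strand: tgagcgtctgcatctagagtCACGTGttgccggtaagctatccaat
Cry1, chr10:85185089-85185134, minus strand: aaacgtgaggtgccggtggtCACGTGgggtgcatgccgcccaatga
Tef, first start, chr15:81802526-81802571, plus strand: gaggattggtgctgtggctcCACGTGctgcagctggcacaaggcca
Tef, second start, chr15:81811256-81811301, plus strand: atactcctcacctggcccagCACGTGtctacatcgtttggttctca
Nfil3, chr13:52981034-52981062, minus strand: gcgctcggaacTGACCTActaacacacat
Arntl, second start, chr7:113207530-113207558, plus strand: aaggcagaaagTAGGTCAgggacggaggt

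Ciart carried 3 E-boxes, beginning 116, 58 and 44 bases before the start, and Cry1 carried 1, beginning 60 bases before it. An E-box lay before each of the listed starts of Tef. An E-box was present in 7.15% of all 32851 promoter windows, and in 8.09% of the 27025 genes that had a window. Nfil3 had a ROR element on the opposite strand, 12 bases before its start, and Arntl had one 30 bases after the second of its listed starts. A ROR element was present in 6.45% of all windows and 7.35% of these genes. No D-box was found in the windows of the 9 genes, and 2.32% of all windows and 2.72% of all genes with a window held one. The windows of Clock, Npas2, Dbp and Hlf held none of these letters, which says nothing of sites elsewhere in those genes.

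The activators were lower and the output factor Dbp was higher in osimertinib skin. Arntl averaged 21.5 ± 3.19 CPM in osimertinib libraries and 42.9 ± 6.14 CPM in control libraries, and Dbp 28.8 ± 11.7 CPM in osimertinib libraries and 7.70 ± 4.21 CPM in control libraries (SD, n = 3 each). CPM here is the count scaled to library size with TMM factors, which correct library totals for composition. Groups did not overlap in 6 of the 10 genes, with Dbp and Ciart higher and Arntl, Clock, Npas2 and Nfil3 lower, while 20.7% of the 13498 tested genes had groups that did not overlap (11.3% higher, 9.38% lower). On the deposited FPKM, or on CPM scaled by library totals alone, the groups did not overlap in 3 of the 10 genes, which were Arntl, Nfil3 and Dbp, while 15.6% and 15.2% of all tested genes had groups that did not overlap on these scales. The median log2 fold change of the 10 genes was −0.45 and that of all tested genes −0.05. In bulk skin, fewer cells that express a gene and less of its RNA per cell cannot be told apart.

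**Figure D1:**
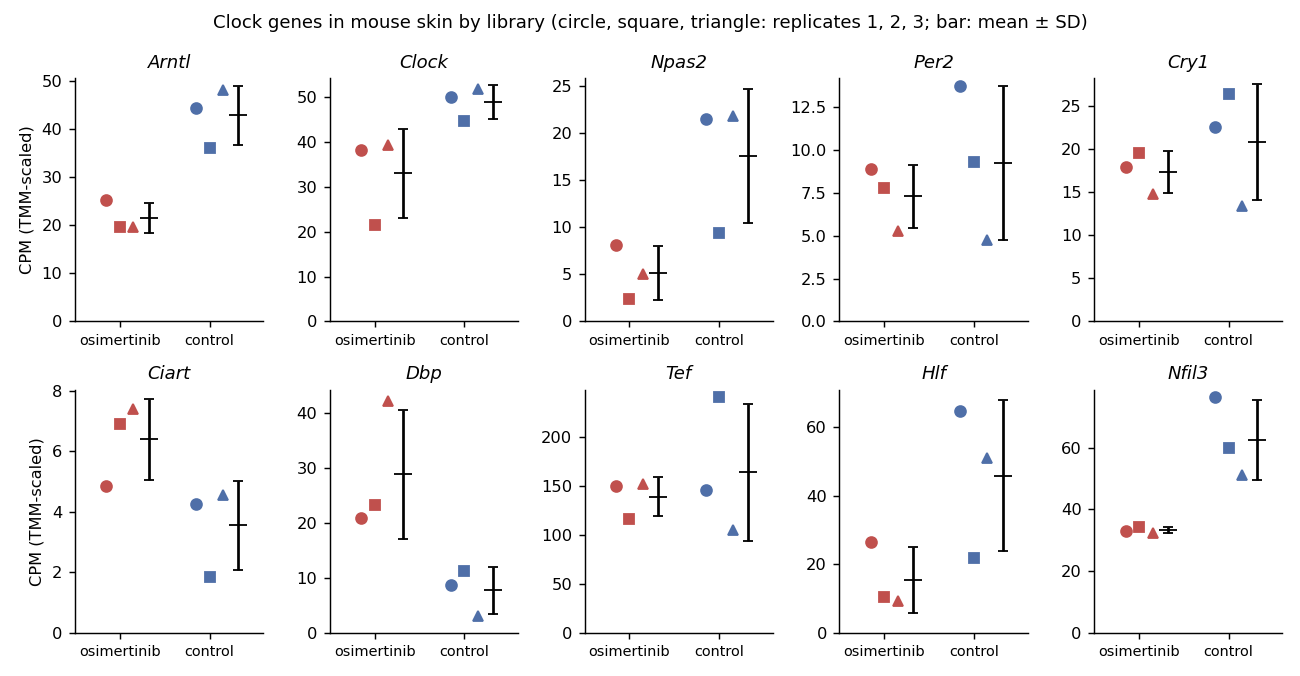
TMM-scaled CPM of the 10 clock genes in each library, 1 panel per gene, with osimertinib in red on the left and control in blue on the right; circles, squares and triangles are replicates 1, 2 and 3 and black bars are mean ± SD. The groups do not overlap in 6 genes, by a wide margin in Arntl, Nfil3 and Dbp and narrowly in Ciart.

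Arntl (chromosome 7, 113207465 to 113314126) encodes the activator without which the loop stops in mice. Its levels were 25.2, 19.7 and 19.7 CPM in osimertinib libraries 1, 2 and 3, against 44.5, 36.1 and 48.1 CPM in control libraries 1, 2 and 3. Every osimertinib library lay below every control library, and the highest of them was well under the lowest control. The log2 fold change was −0.99 ± 0.19 (SE, n = 3 per group).

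Clock (chromosome 5, 76209868 to 76304792) encodes the partner of BMAL1 and in many tissues varies little over the day. It was at 38.1, 21.5 and 39.3 CPM in osimertinib libraries, against 50.0, 44.7 and 51.9 CPM in control libraries. Osimertinib library 2 was by far the lowest, and the other treated libraries lay just under the controls. In deposited FPKM the groups overlapped, with osimertinib libraries 1 and 3 (2.35 and 2.51) above control library 2 (2.24). On the log2 scale the difference was −0.57 ± 0.26 (SE), and −0.34 without osimertinib library 2.

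Npas2 (chromosome 1, 39193731 to 39363236) encodes a relative of CLOCK that can take its place. It was at 8.07, 2.39 and 4.99 CPM in osimertinib libraries, against 21.5, 9.37 and 21.8 CPM in control libraries. Control library 2 lay much nearer to the treated libraries than to the other controls. The log2 fold change was −1.77 ± 0.54 (SE), the most negative of the 10 genes. Its mean was 0.93 FPKM in osimertinib libraries and 3.21 in control libraries, so it passed the filter of 1 FPKM through the controls. In deposited FPKM the groups overlapped, with osimertinib library 1 (1.43) above control library 2 (1.34). Per unit of length, Npas2 had 0.606, 0.316 and 0.364 of the FPKM of Clock in osimertinib libraries, against 1.24, 0.599 and 1.21 in control libraries, and osimertinib library 1 and control library 2 overlapped.

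Among the repressors of the core loop, Per2 and Cry1 had overlapping groups and Ciart did not. Per2 (chromosome 1, 91415982 to 91459324), whose protein with CRY blocks the activators, was at 8.89, 7.76 and 5.28 CPM in osimertinib libraries, against 13.7, 9.28 and 4.75 CPM in control libraries. The groups overlapped, and the controls spread 2.89-fold. Its log2 fold change was −0.34 ± 0.43 (SE), and 0.06 without control library 1.

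Cry1 (chromosome 10, 85131700 to 85185064), whose protein represses together with PER, was at 17.9, 19.5 and 14.7 CPM in osimertinib libraries, against 22.6, 26.4 and 13.4 CPM in control libraries. The groups overlapped, with control library 3 the lowest of all 6. Its log2 fold change of −0.26 ± 0.29 (SE) was within its error, and it was −0.50 without control library 3 and −0.02 without control library 2.

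Ciart (chromosome 3, 95878503 to 95882231), also called Chrono, encodes a repressor that binds BMAL1. It was at 4.87, 6.91 and 7.41 CPM in osimertinib libraries, against 4.26, 1.86 and 4.55 CPM in control libraries. Osimertinib library 1 exceeded control libraries 1 and 3 only slightly, and in deposited FPKM, at 1.82 against 1.92 in control library 3, it lay below one of them. Ciart had a log2 fold change of 0.85 ± 0.41 (SE), and of 0.56 without control library 2.

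The D-box factors differed among themselves in direction. Dbp (chromosome 7, 45705088 to 45710203) was at 20.9, 23.3 and 42.3 CPM in osimertinib libraries, against 8.75, 11.3 and 3.07 CPM in control libraries. Every osimertinib library exceeded every control, and osimertinib library 3 and control library 3 were the extremes. Dbp had a log2 fold change of 1.90 ± 0.54 (SE), the most positive of the 10 genes, and 1.52 without control library 3.

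Exons of Dbp share 539 bases, 18.0% of its exonic length, with exons of Sphk2 on the opposite strand in GENCODE release M21. Whether counting used strand is not given in the sources used here. Sphk2, a sphingosine kinase, was at 83.2, 72.9 and 71.4 CPM in osimertinib libraries, against 100.2, 71.6 and 114.6 CPM in control libraries, with a log2 fold change of −0.33 ± 0.21 (SE, edgeR adjusted p = 0.54). The part of shared reads in the level of Dbp was not tested.

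Tef (chromosome 15, 81802421 to 81826863), another PAR bZIP activator, was at 150.3, 116.0 and 151.9 CPM in osimertinib libraries, against 145.7, 241.2 and 105.4 CPM in control libraries. The treated libraries lay inside the range of the controls. Its log2 fold change was −0.24 ± 0.33 (SE), and 0.18 without control library 2.

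Hlf (chromosome 11, 90336536 to 90390895), the remaining PAR bZIP activator, was at 26.6, 10.4 and 9.20 CPM in osimertinib libraries, against 64.9, 21.8 and 50.9 CPM in control libraries. Osimertinib library 1 lay above control library 2, so the groups overlapped. The log2 fold change was −1.58 ± 0.57 (SE), and the groups did not overlap when either of those libraries was left out.

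Nfil3 (chromosome 13, 52967209 to 52981073), the D-box repressor, was at 33.0, 34.4 and 32.4 CPM in osimertinib libraries, against 76.6, 59.9 and 51.1 CPM in control libraries. The treated libraries were almost equal, 1.06-fold from lowest to highest, and all lay below the controls. The log2 fold change was −0.91 ± 0.19 (SE).

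Ratios within a library do not depend on how libraries are scaled. The FPKM of Dbp was 0.429, 0.457 and 0.883 of that of Nfil3 in osimertinib libraries, against 0.0772, 0.127 and 0.0405 in control libraries. The ratio of Dbp to Arntl was 2.09, 2.97 and 5.39 in osimertinib libraries, against 0.493, 0.784 and 0.160 in control libraries. Neither ratio overlapped between the groups, and the same held for Ciart over Arntl, at 0.640 to 1.25 in osimertinib libraries, against 0.169 to 0.317 in control libraries. For Dbp over Nfil3 or Arntl this had to be so, as those genes did not overlap in FPKM and differed in opposite directions. Dbp over Tef and Dbp over Hlf did not overlap either. Nr1d1 over Arntl, Npas2 over Arntl, Arntl over Clock, Per2 over Cry1 and Hlf over Tef overlapped.

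Summed FPKM of the PAR bZIP activators was alike in both groups, at 25.5, 22.3 and 30.6 in osimertinib libraries, against 27.2, 25.9 and 21.1 in control libraries. Their make-up differed in the part of Dbp, which did not overlap between the groups. Dbp contributed 23.2%, 32.3% and 40.6% of the sum in osimertinib libraries, against 9.37%, 9.99% and 4.63% in control libraries. Hlf contributed 13.2%, 6.42% and 3.94% in osimertinib libraries, against 31.2%, 8.64% and 34.6% in control libraries, where control library 2 again stood near the treated ones. The part of Hlf thus overlapped between the groups. So did that of Tef, at 55.5% to 63.5% in osimertinib libraries, against 59.4% to 81.4% in control libraries.

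**Figure D2:**
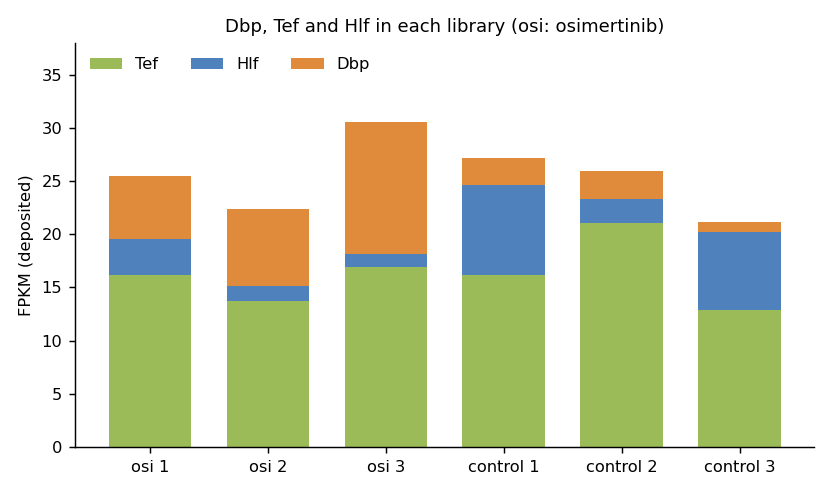
Deposited FPKM of Tef (green), Hlf (blue) and Dbp (orange) stacked for each library, osimertinib libraries (osi) on the left. The stacks reach 22.3 to 30.6 FPKM in osimertinib libraries and 21.1 to 27.2 in control libraries, while the Dbp part takes 23.2% or more in the first and 9.99% or less in the second.

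In FPKM, which allows levels of different genes to be compared, Tef (15.6 ± 1.70) and Nfil3 (14.5 ± 1.09) were the most abundant of the 10 genes in osimertinib skin and overlapped each other. Dbp came next (8.51 ± 3.42), then Cry1 (4.61 ± 0.78), each with a range apart from its neighbours. Arntl, Ciart, Clock and Hlf lay between 2.00 and 2.52 with overlapping ranges, and Per2 (1.10) and Npas2 (0.93) were the lowest. In control skin the order was Nfil3 (25.9 ± 6.51), Tef (16.7 ± 4.14), Hlf (6.01 ± 3.32), Cry1, Arntl, Npas2, Clock, Dbp (2.04 ± 0.92), Ciart and Per2, and all neighbours overlapped except Tef and Hlf. Dbp was thus the third most abundant in osimertinib skin and the eighth in control skin, and Hlf the eighth in osimertinib skin and the third in control skin.

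Among the other 20 listed genes of the clock pathway, 17 were tested, and 0 passed edgeR's quasi-likelihood test at an adjusted p of 0.05, where 0.0% of all tested genes passed. At an unadjusted p under 0.05 there was 1 higher and 0 lower, against 14.0% of all tested genes (7.22% higher, 6.73% lower). DESeq2 called 1 higher and 0 lower, against 6.39% of the genes to which it gave an adjusted p. Their median log2 fold change was 0.01, with 9 higher and 8 lower in sign.

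The gene DESeq2 called was Timeless, which in mammals acts mainly at replication forks. It was at 16.4, 29.1 and 25.5 CPM in osimertinib libraries, against 8.39, 9.52 and 13.0 CPM in control libraries, without overlap, and its log2 fold change was 1.20 ± 0.29 (SE, edgeR adjusted p = 0.23, DESeq2 adjusted p = 0.00998). All 6 proliferation markers had a positive log2 fold change, and together they took 0.0388% to 0.0647% of the count in osimertinib libraries, against 0.0130% to 0.0397% in control libraries. Their part in the level of Timeless was not tested.

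The other repressors did not follow 1 direction. Per1, which glucocorticoids also induce, was at 201.7, 161.3 and 137.0 CPM in osimertinib libraries, against 300.7, 144.9 and 307.5 CPM in control libraries, with control library 2 inside the treated range (log2 fold change −0.59 ± 0.34, SE, edgeR adjusted p = 0.50). Per3 differed by 0.14 ± 0.22 (edgeR adjusted p = 0.86). Cry2 was lower in every osimertinib library, at 39.4 to 49.9 CPM, than in control libraries, at 51.7 to 68.7 CPM (−0.39 ± 0.18, edgeR adjusted p = 0.40). In deposited FPKM its groups overlapped, with control library 2 (5.77) below every osimertinib library (5.79 to 6.68). Bhlhe40, an E-box repressor, averaged 146.6 ± 48.4 CPM in osimertinib libraries and 85.2 ± 21.5 CPM in control libraries, with overlap (0.78 ± 0.32, edgeR adjusted p = 0.36).

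The REV-ERB gene Nr1d1, whose product represses Arntl, had overlapping groups. It was at 121.9, 66.5 and 155.5 CPM in osimertinib libraries, against 88.2, 158.6 and 69.7 CPM in control libraries, with a log2 fold change of 0.12 ± 0.42 (SE, edgeR adjusted p = 0.96). Nr1d2 differed by −0.26 ± 0.25 (edgeR adjusted p = 0.72). The activating receptor Rora (−0.76 ± 0.35, edgeR adjusted p = 0.40) overlapped too. Rorb, Fbxl21 and Btrc were under the filter of a mean of 1 FPKM. Arntl2, a relative of Arntl, differed by −0.27 ± 0.39 (edgeR adjusted p = 0.83).

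Among kinases and ligases that set the stability of PER and CRY proteins, Csnk1d (0.05 ± 0.19), Fbxw11 (0.01 ± 0.17) and Gsk3b (−0.02 ± 0.13) had log2 fold changes within their SE, with edgeR adjusted p of 0.96, 0.99 and 0.98. Csnk1e (0.47 ± 0.24) and the PER partner Nono (0.36 ± 0.21) had edgeR adjusted p of 0.44 and 0.49.

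**Figure D3:**
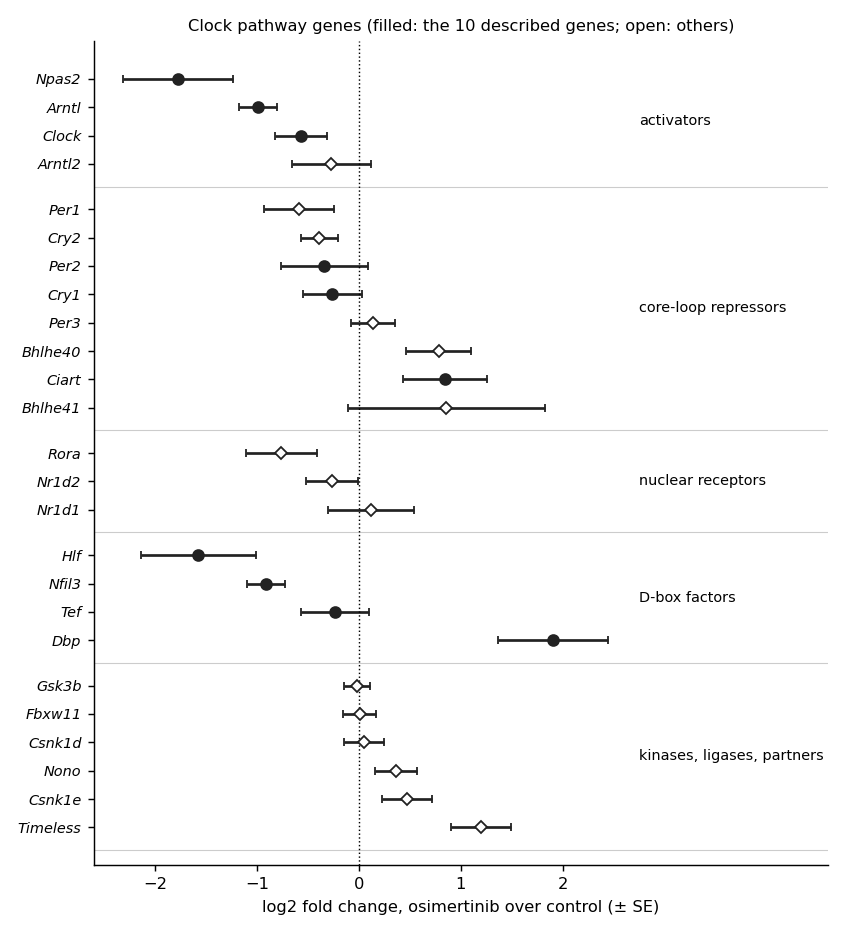
Log2 fold change (osimertinib over control, edgeR, bars ± SE) of 25 tested clock pathway genes, grouped by role; filled circles are the 10 described genes and open diamonds 15 others. The activators lie left of 0, and the D-box factors spread from −1.58 (Hlf) to 1.90 (Dbp).

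**Figure D4:**
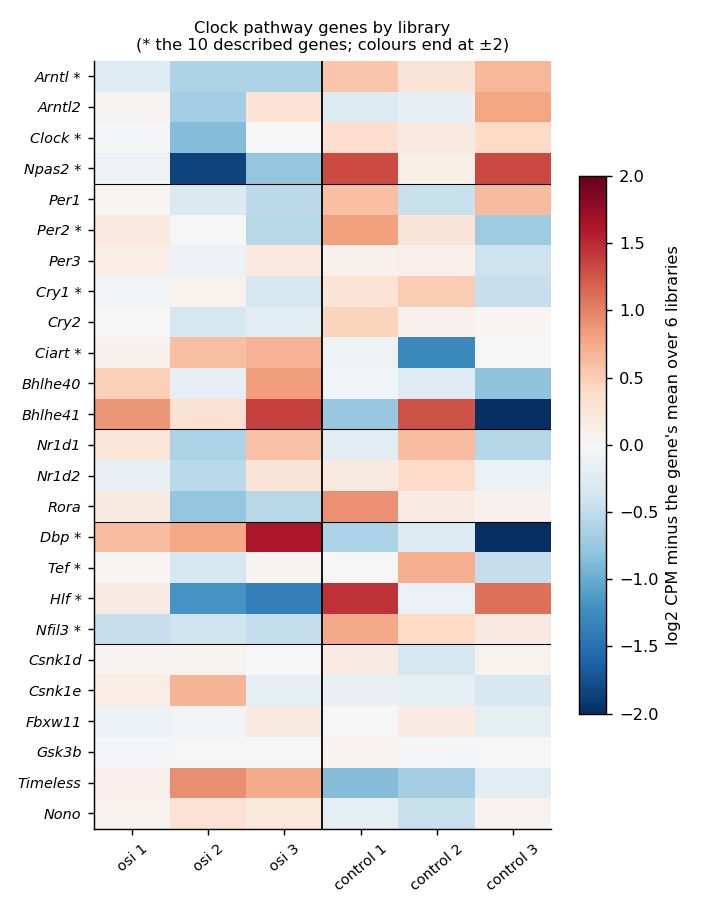
Log2 CPM of the same 25 clock pathway genes minus each gene's mean over the 6 libraries, osimertinib libraries (osi) left of the black line and control libraries right of it; asterisks mark the 10 described genes. Red is above and blue below the mean, and colours end at ±2, so that Bhlhe41 (−3.08) and Dbp (−2.13) in control library 3 lie past the scale; Arntl and Nfil3 change colour at the line, while Npas2 and Hlf are pale in control library 2.

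Genes that follow the clock in several mouse tissues were mostly lower in sign. Of 12 listed, 11 were tested, 1 was higher and 10 lower, 0 passed edgeR over all genes, and 3 were lower at an unadjusted p under 0.05, as 6.73% of all genes were. DESeq2 called 2 of them lower, where it called 2.96% of all genes lower. The list was chosen with earlier results of these data known, so its counts beside all genes are a description only. Tsc22d3, which also answers to glucocorticoids, was at 187.8, 135.5 and 185.1 CPM in osimertinib libraries, against 704.3, 510.2 and 567.5 CPM in control libraries (log2 fold change −1.81 ± 0.25, SE, edgeR adjusted p = 0.13, DESeq2 adjusted p = 3.27e-13). Fmo2, a flavin monooxygenase, was at 10.6, 8.87 and 11.7 CPM in osimertinib libraries, against 21.9, 23.7 and 22.7 CPM in control libraries (−1.13 ± 0.18, edgeR adjusted p = 0.16, DESeq2 adjusted p = 1.58e-06).

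Wee1, a brake on entry to mitosis that the clock drives through E-boxes in mouse liver, was at 47.5, 24.0 and 19.2 CPM in osimertinib libraries, against 135.7, 34.7 and 102.7 CPM in control libraries. As with Npas2 and Hlf, control library 2 was near the treated libraries, and the log2 fold change was −1.59 ± 0.58 (SE, edgeR adjusted p = 0.32). Klf9 was at 58.1 to 88.4 CPM in osimertinib libraries, against 77.4 to 140.4 CPM in control libraries (−0.69 ± 0.29, edgeR adjusted p = 0.37).

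A list of 10 glucocorticoid-response genes was set beside the clock, since adrenal hormones reset it; it shares Per1, Tsc22d3 and Klf9 with the lists above. All 10 were tested, 1 was higher and 9 lower in sign, where 7389 of the 13498 tested genes were lower. Of the list 0 passed edgeR, 5 were lower at an unadjusted p under 0.05 (6.73% of all genes), and DESeq2 called 3 lower (2.96% of all genes). It too was chosen with earlier results of these data known, so its counts beside all genes are a description only. Fkbp5, an early target of the glucocorticoid receptor, was at 38.8, 31.98 and 54.2 CPM in osimertinib libraries, against 131.7, 137.6 and 144.0 CPM in control libraries (log2 fold change −1.73 ± 0.23, SE, edgeR adjusted p = 0.13, DESeq2 adjusted p = 6.27e-09). Together the listed genes took 0.175% to 0.222% of the count in osimertinib libraries, against 0.166% to 0.439% in control libraries. The groups thus overlapped, with control library 2 the lowest of all libraries. The part of this response in the clock gene levels was not tested.

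Tissue make-up differed between the libraries. All 6 basal and 5 suprabasal keratinocyte markers were detected in every library. The 15 skeletal muscle markers took 6.99%, 4.25% and 6.87% of the count in osimertinib libraries, against 4.46%, 13.0% and 0.0299% in control libraries. Control library 2 thus held the most muscle. Arntl, Clock, Npas2, Hlf and Ciart were lowest among controls in that library, as were Wee1 and Per1. Dbp, Tef and Cry1 were highest among controls there, as were Nr1d1 and Nr1d2. Basal keratinocyte markers took 1.72%, 0.998% and 1.14% in osimertinib libraries, against 1.51%, 0.774% and 3.44% in control libraries. Suprabasal keratinocyte markers took 0.572%, 0.264% and 0.0578% in osimertinib libraries, against 0.872%, 0.307% and 0.914% in control libraries, and all 5 were lower in sign, with a median log2 fold change of −1.41. Control library 2 was thus the lowest control and osimertinib library 1 the highest treated library for them, as for Arntl, Npas2, Hlf, Per1 and Wee1. For Dbp it was the reverse, with control library 2 the highest control and osimertinib library 1 the lowest treated library. Clock, Nfil3, Ciart, Per2, Cry1 and Tef followed neither order. The part of these markers in the clock gene levels was not tested. The 9 measured hair shaft markers of 10 listed took 0.0507% to 0.481% in osimertinib libraries, against 0.000338% to 0.0163% in control libraries, without overlap. Markers of Schwann cells, 4 in all, took 0.00777% to 0.0128% in osimertinib libraries, against 0.0166% to 0.0215% in control libraries, also without overlap. The 8 adipocyte markers (0.0783% to 0.187% in osimertinib libraries, against 0.0547% to 0.274% in control libraries) and the 6 fibroblast markers (0.132% to 0.310% in osimertinib libraries, against 0.246% to 0.404% in control libraries) overlapped, and so did those of T cells, macrophages and endothelium. The part of hair shaft and Schwann cell content in the clock gene levels was not tested.

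Adding the muscle score to the fit gave a log2 fold change for Arntl of −0.91, for Npas2 of −1.55, for Hlf of −1.42 and for Dbp of 1.63. In that fit Per2 was at −0.57 ± 0.37, Cry1 at −0.43 ± 0.20 and Tef at −0.43 ± 0.21 (SE), each further from 0 by over 1.5 times than without the covariate, and all of them then beyond their SE. With the basal keratinocyte score in its place, an alternative chosen after seeing the data, Arntl was at −0.77, Npas2 at −1.08, Hlf at −0.83, Dbp at 1.32, Ciart at 1.27, Cry1 at −0.49 and Tef at −0.48. Without control library 2, Npas2 was at −2.06 and Hlf at −1.90. Arntl, Npas2, Hlf, Dbp and Ciart kept their sign in these fits. The values of Hlf and Npas2 were closer to 0 by over 1.5 times, and those of Ciart, Cry1 and Tef further from it, with the keratinocyte score.

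**Figure D5:**
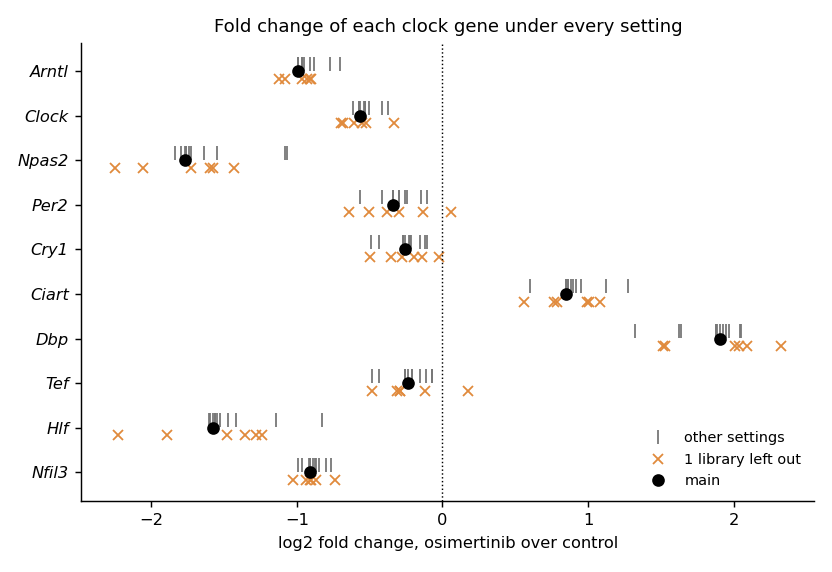
Log2 fold change (osimertinib over control) of each of the 10 clock genes in the main fit (black circle), with 1 library left out (orange crosses) and under the other settings (grey ticks). Arntl, Clock, Npas2, Hlf and Nfil3 stay left of 0 and Ciart and Dbp right of it, while Tef and Per2 each cross it when 1 control library is left out.

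The genes whose log2 CPM ran most like that of Arntl over the 6 libraries were Zfr2 (Pearson r = 0.998), Cyp2b10 (0.998), Hspa12a (0.996), Papln (0.995) and Col8a2 (0.994), and 175 genes reached 0.95. Cyp2b10, a cytochrome P450, was at 7.03, 3.62 and 3.17 CPM in osimertinib libraries, against 40.02, 21.3 and 63.1 CPM in control libraries. Those most like Dbp were Spon1 (0.999), Mzt2 (0.994), Ctsc (0.990), Vhl (0.982) and Zfp213 (0.981), and 26 genes reached 0.95. Spon1, a matrix protein, was at 15.1, 16.2 and 21.2 CPM in osimertinib libraries, against 9.74, 10.9 and 5.47 CPM in control libraries. These r describe 6 libraries that fall into the treatment groups, and so many genes reach a high r that none is singled out by it.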

How the data were processed

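The deposited table holds raw counts per gene for 6 libraries and, beside them, FPKM values that the authors computed, per the file headers. Per the labels' protocols, poly(A) RNA was made into dUTP-marked, paired-end libraries with molecular identifiers. The submitters' processing notes name cutadapt 1.9 and build GRCm38. Neither aligner, counting tool nor use of strand is given in the sources used here. A further 6 value columns (3 libraries, each with counts and FPKM) match no sample and were not used.

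Genes with a mean of at least 1 FPKM (13498) were tested on the counts by edgeR's quasi-likelihood test (edgeR 4.0.16, R 4.3.3), with TMM scaling, no covariate, two-sided p and Benjamini-Hochberg adjustment over all tested genes (threshold 0.05). Each SE was taken as log2 fold change over root F. A count of 0 allows up to 3 counts, at most 0.0554 CPM before scaling; with 3 against 3 samples the smallest exact p is 0.1. The steps were tested on simulated data. DESeq2 1.42.0 and limma 3.58.1 on log2(FPKM + 1) and log2(FPKM + 0.1) were alternatives, with others in scaling, filter, covariate, block and libraries left out.

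The 10 genes and all lists were chosen with earlier results of these data known. Text names all 10, the clock pathway list (2 of its genes are not reported here), the 4 output genes with the smallest p, and the 5 genes most correlated (log2 CPM, prior count 2) with Arntl and with Dbp, without Gm, LOC or Rik names. Values are given for Spon1 and Cyp2b10 of these, and for Fkbp5 and Sphk2, all chosen after their values were seen. Promoter sequences are from RefSeq (GRCm38.p6).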

Additional observations from a re-analysis of the deposited data

How the results depend on the processing

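Arntl, Clock, Npas2, Hlf and Nfil3 kept a negative and Ciart and Dbp a positive log2 fold change in every alternative in which they were tested (17 each, 18 for Nfil3 and Dbp). All alternatives reuse the same libraries, so a kept sign is a description only. Where groups did not overlap, leaving out 1 library could not change the sign, apart from small changes in scaling. Against 0 genes called by edgeR, DESeq2 called 858 (460 higher, 398 lower), limma called 17 at a pseudocount of 1 and 2 at 0.1, the stricter filter (5 FPKM) gave 2, and library totals only, the muscle score and the keratinocyte score gave 1 each. Of the other clock pathway genes DESeq2 called 1. Groups did not overlap in 6 of the 10 genes in the main fit, in 3 with FPKM at either pseudocount or library totals only, and in 2 of the 3 left by the stricter filter; over all tested genes these shares were 20.7%, 15.6%, 15.2% and 19.7%. Covariate and block fits give no separation count. Arntl was at −0.71 in limma at a pseudocount of 1 and −0.77 with the keratinocyte score, further from the main value than its spread between replicates. In the same limma fit Npas2 was at −1.06 and Clock at −0.37, as the pseudocount shrinks low values. At a pseudocount of 0.1 Arntl was at −0.88, Npas2 at −1.64 and Clock at −0.51. The cause of the value of Arntl with the keratinocyte score was not tested.

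With 1 library left out, 0 genes and 0 clock pathway genes were called in every case, and 6 to 8 of the 10 genes did not overlap, against 23.5% to 46.3% of all tested genes (34.5% without control 3, which gave the 8). Apart from small changes in scaling, leaving out a library cannot make separate groups overlap, so that count could not fall. The log2 fold changes ranged from −1.12 to −0.90 for Arntl, −0.69 to −0.34 for Clock, −2.25 to −1.43 for Npas2, −1.03 to −0.74 for Nfil3, 1.52 to 2.33 for Dbp, −0.48 to 0.18 for Tef, −2.23 to −1.24 for Hlf, 0.56 to 1.08 for Ciart, −0.64 to 0.06 for Per2 and −0.50 to −0.02 for Cry1. With the replicate number as a block 0 genes and 0 clock pathway genes were called, and Arntl was at −0.99 and Dbp at 1.97. Same-numbered samples had correlations of deviations of 0.23, 0.02 and −0.11, so the numbers were not taken to pair them, and only osimertinib 1 correlated best with its own number. Median log2 fold changes over all genes stayed between −0.06 and 0.10.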
